A study of Mus musculus with 12 samples.

Results

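The response of the wild-type mouse colon to dextran sulfate sodium (DSS) was read from 6 of the 12 arrays of the series, the 3 of wild-type (WT) mice on DSS and the 3 of WT mice on water. They were chosen by their titles, and all 19935 genes whose probe sets carry a single gene symbol were kept. All 6 samples came from male mice aged 8 to 10 weeks, littermates of mice with a Villin-Claudin-2 transgene, which the WT animals did not carry. The treated group drank 4% (w/v) DSS and the control group plain water, both for 10 days. The labels name no strain. They also leave unsaid whether the 3 arrays of a group stand for 3 animals, so a p-value measures only how these samples scatter, and that scatter may be technical. The RNA, labelled as that of colon epithelial cells, was measured on Affymetrix mouse gene arrays.

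DSS is a sulfated sugar polymer that, taken in drinking water, damages the lining of the colon and is widely used to model ulcerative colitis. Loss of the barrier lets bacteria reach the tissue, neutrophils and monocytes arrive, and cytokines such as interleukin 1, tumour necrosis factor and interleukin 6 switch on acute-phase and antimicrobial genes. The lining is rebuilt from crypt cells, whose stem cells depend on Wnt signalling, and absorptive, secretory and hormone-producing cells differentiate as they move up the crypt.

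Values are on the log2 scale and centred, for each probe set, on its median over all 12 arrays. A value of 0 is thus not an absence of signal, and genes cannot be ranked by level. The SD between the 3 arrays of a group had a median over genes of 0.133 on water and 0.192 on DSS, and it was larger on DSS for 63.9% of genes. The arrays of WT mice on DSS are called DSS 1, DSS 2 and DSS 3 after their replicate numbers. On DSS 1, 404 genes lay at least 1 log2 unit above the mean of the water arrays and 172 at least 1 below it. The counts were 1889 and 1435 on DSS 2, and 391 and 408 on DSS 3. A water array, set against the mean of the other water arrays, had 12 to 34 above and 13 to 29 below. DSS 2 stood apart from the other 2 treated arrays by these counts.

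The label of the samples was set against cell type markers. The 29 measured pan-epithelial genes, such as Epcam and Cdh1, which encode adhesion molecules of all epithelia, had medians of -0.11, -2.21 and 0.02 on DSS 1, 2 and 3. Epcam read 0.02, -0.03 and 0.04 on water and -0.11, -1.99 and -0.01 on DSS. Cdh1 read 0.01, 0.07 and 0.01 on water and -0.11, -2.08 and -0.10 on DSS. Of the 29 pan-epithelial genes, 9 (31%) lay lower on every DSS array than on every water array, beside 10.7% of all genes, and none lay higher. On DSS 2 the pan-epithelial median lay more than 2 log2 units below those of the other 5 arrays, and without DSS 2 the median difference of these genes between DSS and water was -0.03, against -0.76 with all arrays and -1.18 without DSS 3. Markers of some other cells went the other way on that array, with medians of 3.21 for neutrophil genes, 2.89 for endothelial genes, 2.59 for macrophage and monocyte genes and 2.05 for fibroblast genes. Medians there were lower for enteric neuron and glia (1.05), smooth muscle (0.66), mast cell (0.37) and T and NK cell genes (0.20). They lay below 0 for B and plasma cell (-0.01), red blood cell (-0.19) and adipocyte genes (-0.30). The samples are bulk RNA, in which fewer cells of a type and less RNA per cell cannot be told apart. Since values hold no absolute level, no marker can be called absent.

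In a limma fit to the 6 arrays, 0 of 19935 genes passed at a Benjamini-Hochberg adjusted p under 0.05, a share of 0%. The smallest adjusted p was 0.123, and 1545 genes had an unadjusted p under 0.05. In the fit that pooled the spread of all 12 arrays of the series, 34 genes (0.171%) passed, 9 higher and 25 lower, and with a weight per group in that fit 0 passed. Weights per array let 45 pass and eBayes with trend and robust settings 1. Without DSS 1 the 6-array fit let 66 genes pass, without DSS 3 it let 22 pass, and without DSS 2 it let 0 pass. Genes are therefore described by their values on each array. A gene is called separated where every DSS array lay beyond every water array, and its gap is the distance between the nearest DSS and water arrays.

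Separated genes numbered 1086 on the higher side (5.45% of all genes) and 2129 on the lower side (10.7%). These shares are the reference for the counts of separated genes given for each list. A gap of at least 1 log2 unit, a factor of 2 between the nearest arrays, was reached by 37 genes on the higher side (0.186%) and by 21 on the lower side (0.105%). The smallest gap among those 37 was 1 and the next gene outside had 0.987. On the lower side the same gaps were 1.05 and 0.987. Of the 37, 29 were farthest from water on DSS 2 and 28 were nearest to water on DSS 3. Of the 21, 14 were farthest on DSS 2 and 18 were nearest to water on DSS 1. A change of at least 1 in the group means was more frequent and less shared. It was found for 592 genes on the higher side and 364 on the lower side, and 262 and 97 of them were not separated. DSS 2 was the farthest array for 739 of these 956 genes.

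**Figure D1:**
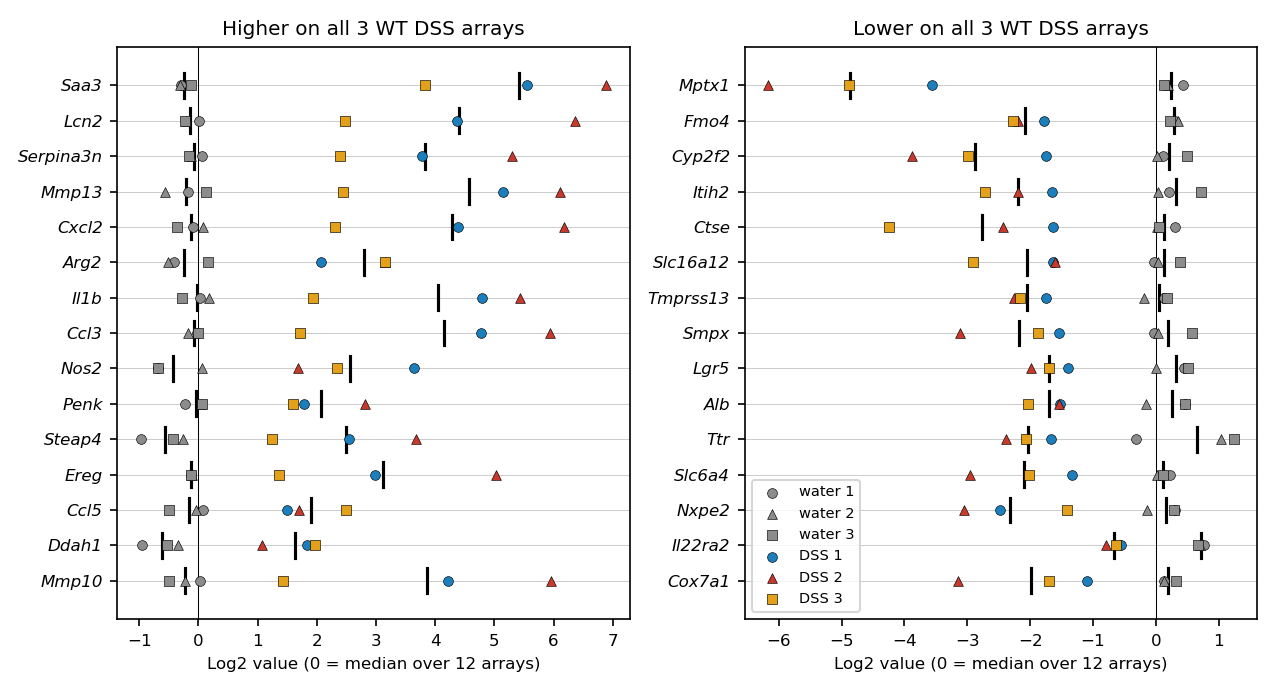
The 15 genes with the widest gap between the groups on each side are plotted by log2 value (x axis, 0 is the probe set's median over 12 arrays), with a symbol for each of the 6 WT arrays and black bars at the mean of each group. No DSS symbol overlaps the water symbols of the same gene. On the left DSS 3 is nearest to water for most genes, and on the right Il22ra2 has the tightest DSS values.

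Acute-phase and antimicrobial genes held the widest gaps on the higher side. Saa3 encodes a serum amyloid A protein made locally in inflamed tissue. It read -0.29, -0.30 and -0.13 on water and 5.55, 6.89 and 3.83 on DSS. The 3 treated arrays stood far above the controls and differed widely from each other. The mean difference was 5.67 ± 0.75 (SE, n = 3 arrays per group), or 50.8-fold, with a limma adjusted p of 0.345. This SE and those below are from the limma fit, which moderates each gene's spread with that of all genes. Lcn2, lipocalin 2, binds the siderophores with which bacteria take up iron. Lcn2 read 0.01, -0.20 and -0.22 on water and 4.37, 6.36 and 2.48 on DSS, a difference of 4.54 ± 0.94 (SE, n = 3 per group, limma adjusted p = 0.468). Serpina3n, an inhibitor of neutrophil proteases, read 0.07, -0.13 and -0.16 on water and 3.78, 5.30 and 2.39 on DSS. In all these genes DSS 2 was highest and DSS 3 lowest of the treated arrays, and no treated array came near the controls.

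Over the 30 measured acute-phase and antimicrobial genes, 12 were separated on the higher side and 1 on the lower side, against 5.45% and 10.7% of all genes. The median difference was 0.65, beside -0.04 over all genes, and the medians on DSS 1, 2 and 3 were 0.92, 0.42 and 0.36. Without DSS 3 the median difference was 1.09. S100a9, a subunit of calprotectin, which withholds metals from microbes, read 0.01, 0.09 and -0.19 on water and 3.51, 4.6 and 0.94 on DSS. Retnlb, a goblet cell protein that binds bacterial membranes, followed another order and read -0.14, -1.14 and -0.50 on water and 3.24, 0.56 and 3.03 on DSS. DSS 2 was the lowest of the treated arrays for Retnlb and the highest for S100a9, and both genes were separated.

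Among 31 measured chemokines 13 were separated on the higher side and 2 on the lower side, with a median difference of 1.17 and medians on DSS 1, 2 and 3 of 0.78, 2.08 and 0.16. Without DSS 2 the median difference was 0.62. Cxcl2, which draws neutrophils through CXCR2, read -0.09, 0.09 and -0.35 on water and 4.38, 6.18 and 2.30 on DSS. Ccl3, a chemokine made by activated macrophages, read -0.01, -0.17 and -0.01 on water and 4.77, 5.94 and 1.72 on DSS. Both had their lowest treated value on DSS 3. Ccl5, a chemokine made by activated T cells, had its highest value there and read 0.08, -0.03 and -0.50 on water and 1.5, 1.70 and 2.49 on DSS. Its difference was 2.05 ± 0.30 (SE, n = 3 per group; limma adjusted p = 0.378 in the 6-array fit and 0.0267 over 12 arrays, where no gene passes once each group has its own weight). Ccl2, which recruits monocytes, spread most widely, with 2.38, 5.50 and 0.45 on the DSS arrays against -0.19, -0.08 and -0.16 on water.

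Of 43 measured cytokines and cytokine receptors, 13 were separated on the higher side and 3 on the lower side. Interleukin 1 led the list. Il1b read 0.03, 0.18 and -0.27 on water and 4.79, 5.44 and 1.93 on DSS, and Il1a read -0.03, -0.08 and -0.09 on water and 4.37, 5.47 and 1.33 on DSS. Tnf, which encodes tumour necrosis factor, was even across the treated arrays and read -0.02, -0.04 and -0.60 on water and 1.44, 1.39 and 1.13 on DSS. Its difference was 1.54 ± 0.19 (SE, n = 3 per group, limma adjusted p = 0.328). Osmr, the receptor subunit for oncostatin M, read -0.14, -0.16 and 0.26 on water and 2.26, 4.17 and 0.93 on DSS, and Il4ra, a subunit of the receptors for interleukins 4 and 13, read -0.00358, 0.00358 and -0.23 on water and 1.29, 2.23 and 1.15 on DSS. Il22ra2, a soluble receptor that captures interleukin 22 and keeps it from epithelial cells, was on the lower side. It read 0.77, 0.69 and 0.68 on water and -0.56, -0.80 and -0.64 on DSS. The treated arrays lay close together, and the difference of -1.38 ± 0.10 (SE, n = 3 per group) had a limma adjusted p of 0.123.

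Nos2 and Arg2, enzymes that both use arginine, were high on every treated array. Nos2, the inducible nitric oxide synthase, read -0.68, 0.06 and -0.69 on water and 3.65, 1.69 and 2.35 on DSS, and it was highest on DSS 1. Arg2, the mitochondrial arginase that competes for the same substrate, read -0.41, -0.51 and 0.17 on water and 2.08, 3.16 and 3.15 on DSS, and it was lowest on DSS 1. Arg2 differed by 3.04 ± 0.36 (SE, n = 3 per group, limma adjusted p = 0.328). Ddah1, which degrades methylated arginines that inhibit nitric oxide synthases, read -0.94, -0.34 and -0.53 on water and 1.84, 1.08 and 1.97 on DSS. Of the 15 genes of arginine, nitric oxide and polyamine metabolism, 4 were separated on the higher side and none on the lower side. Ptgs2, the inducible cyclooxygenase of prostaglandin synthesis, read 0.19, -0.33 and -0.05 on water and 3.34, 5.12 and 1.17 on DSS. Hmox1, heme oxygenase 1, a target of NRF2, read -0.13, -0.10 and -0.11 on water and 1.66, 3.30 and 1.11 on DSS. Cyba, the p22 subunit of the NADPH oxidase, read -0.36, -0.06 and -0.46 on water and 0.41, 0.82 and 0.53 on DSS. On the higher side 3 of 20 prostaglandin genes (15%) and 2 of 16 reactive oxygen enzymes (12.5%) were separated, and none on the lower side. Of 21 NRF2 targets and antioxidants 2 were separated on each side (9.52%), beside 5.45% and 10.7% of all genes. The median differences of these lists were 0.17, 0.16 and 0.18.

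Matrix metalloproteinases and remodelling genes formed the list with the largest median difference of the 51. All 24 measured genes had a positive difference, 14 were separated on the higher side and none on the lower side. The median difference was 2.03, and the medians were 1.55, 3.51 and 0.27 on DSS 1, 2 and 3. Mmp13, an interstitial collagenase, read -0.18, -0.56 and 0.13 on water and 5.15, 6.10 and 2.44 on DSS. Mmp10, stromelysin 2, which epithelial cells make at wound edges, read 0.03, -0.23 and -0.49 on water and 4.21, 5.96 and 1.44 on DSS. Mmp3, stromelysin 1, which can activate other metalloproteinases, read -0.41, -0.52 and -0.76 on water and 3.82, 5.42 and 0.97 on DSS. DSS 3 was the lowest treated array and DSS 2 the highest in each of the 3. Adamts1, a secreted protease that cleaves proteoglycans, read -0.01, 0.01 and -0.02 on water and 1.63, 4.13 and 0.88 on DSS, and Thbs1, thrombospondin 1, an activator of latent transforming growth factor beta, read 0.34, -0.43 and -0.09 on water and 1.95, 3.42 and 1.38 on DSS. Without DSS 2 the median difference of the list was 1.08.

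Collagen genes differed by a median of 0.88, with medians of 0.67, 2.26 and -0.07 on the DSS arrays. On the higher side 3 of 20 were separated (15%, beside 5.45% of all genes), and none on the lower side. The median difference was 0.22 without DSS 2 and 1.49 without DSS 3. Among 25 epithelial repair and fetal-like genes 5 were separated on the higher side (20%, beside 5.45% of all genes). On the lower side there were 2 (8%, beside 10.7% of all genes). Ereg, the growth factor epiregulin, a ligand of the epidermal growth factor receptor, read -0.12, -0.11 and -0.13 on water and 2.99, 5.02 and 1.36 on DSS. Plaur, the urokinase receptor, read -0.23, 0.01 and -0.01 on water and 1.55, 2.42 and 0.71 on DSS. Egfr itself read -0.13, -0.17 and -0.07 on water and 0.23, 0.93 and 0.22 on DSS, a separated but small difference. Penk, the enkephalin precursor, was high on every treated array and read -0.23, 0.05 and 0.06 on water and 1.78, 2.82 and 1.59 on DSS. Steap4, a metalloreductase, read -0.97, -0.26 and -0.43 on water and 2.54, 3.68 and 1.25 on DSS.

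The immune lists were read beside the cell type markers that moved with them. Of 24 neutrophil genes 15 were separated on the higher side, with medians of 1.42, 3.21 and 0.21 on DSS 1, 2 and 3 and 0.01, 0.01 and -0.23 on the water arrays. Of 28 macrophage and monocyte genes 8 were separated on the higher side, with medians of 1.24, 2.59 and -0.06 on the DSS arrays and 0.13, 0.00066 and -0.02 on water. Retnlg, a resistin-like protein of neutrophils, read 0.05, -0.03 and -0.13 on water and 3.20, 5.16 and 1.22 on DSS. Clec4e, the receptor Mincle, read 0.04, 0.05 and -0.19 on water and 3.42, 5.04 and 0.86 on DSS. Cd68, a lysosomal protein of macrophages, read 0.12, -0.13 and -0.12 on water and 1.54, 3.34 and 0.53 on DSS, and Csf1r, the macrophage growth factor receptor, read 0.35, 0.01 and -0.01 on water and 1.03, 2.22 and -0.24 on DSS. Csf1r overlapped the controls through DSS 3, and Cd68 did not. The part of these cells in the acute-phase, chemokine, cytokine and matrix values was not tested.

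T and NK cell genes had a median difference of 0.24, with medians of 0.15, 0.20 and 0.12 on DSS 1, 2 and 3, and 7 of 24 were separated on the higher side and none on the lower side. Gzmb, the cytotoxic protease granzyme B, read -0.06, 0.01 and -0.08 on water and 0.50, 1.84 and 2.60 on DSS. Cd3g, a chain of the T cell receptor complex, read -0.09, -0.41 and -0.47 on water and 0.26, 1.55 and 1.74 on DSS. Gzmb and Cd3g were highest on DSS 3, whereas the list's median was highest on DSS 2. B and plasma cell genes had none of 16 separated, and their medians were 0.88, -0.01 and -0.41 on the DSS arrays. Cd79a, a signalling chain of the B cell receptor, read 0.36, -0.49 and 0.00335 on water and 1.66, -0.00335 and -1.73 on DSS. Ms4a1, which encodes CD20, read 0.38, -0.20 and 0.20 on water and 1.57, -0.79 and -1.44 on DSS. The treated arrays lay on both sides of the controls for both genes, DSS 1 above and DSS 3 below.

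Interferon-stimulated genes were separated on the higher side for 7 of 29 and on the lower side for none, with a median difference of 0.41 and medians of 0.76, -0.04 and 0.17. Without DSS 1 the median difference was 0.15. Iigp1, an interferon-inducible GTPase, read 0.04, -0.43 and 0.17 on water and 2.82, 2.86 and 0.87 on DSS. Phf11d, of the same list, read -0.19, -0.34 and 0.05 on water and 1.02, 1.93 and 1.59 on DSS. Ifit2, which acts on viral RNA translation, read 0.16, -0.58 and -0.21 on water and 2.23, 0.54 and 1.78 on DSS and was lowest of the treated arrays on DSS 2. The array order differed within the list, and DSS 2 was not the highest for all members. Among 22 complement genes 7 were separated on the higher side. C2, a protease of the classical pathway, read -0.19, -0.06 and -0.30 on water and 0.72, 0.78 and 0.85 on DSS and was nearly even over the treated arrays, with a difference of 0.97 ± 0.10 (SE, n = 3 per group, limma adjusted p = 0.292). C1s1, another protease of that pathway, read 0.34, -0.25 and 0.13 on water and 1.62, 3.45 and 0.40 on DSS. Immune checkpoint and tolerance genes were separated on the higher side for 7 of 22. Cd274, which encodes PD-L1, read 0.00409, -0.00409 and -0.06 on water and 1.57, 1.56 and 0.38 on DSS, and Lgals9, galectin 9, read -0.17, 0.13 and -0.43 on water and 0.75, 0.98 and 0.84 on DSS.

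Endothelial genes were high on DSS 2 and not on DSS 3. All 21 endothelial genes had a positive difference, with a median of 1.11, and none was separated, beside 5.45% of all genes on the higher side. Their medians were 0.61, 2.89 and -0.22 on DSS 1, 2 and 3. The median difference was 0.20 without DSS 2 and 1.75 without DSS 3. Pecam1, an endothelial adhesion molecule, read 0.03, -0.51 and 0.51 on water and 0.82, 3.08 and -0.54 on DSS. DSS 3 was the lowest of the 6 arrays for Pecam1 and DSS 2 the highest. Of 22 fibroblast genes 1 was separated, the receptor gene Pdgfra, which read 0.13, -0.09 and 0.06 on water and 1.22, 3.34 and 0.45 on DSS. Smooth muscle genes had medians of -1.09, 0.66 and 0.13. Among enteric neuron and glia genes 4 of 17 were separated on the higher side, among them Gfap, an intermediate filament of glia, which read 0.00186, -0.03 and -0.30 on water and 0.53, 1.98 and 1.27 on DSS.

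Promoter sequences are shown for the 3 genes with the widest gap on each side that have an entry in the RefSeq promoter table, since these 6 genes separate the groups most widely. Each run is the 250 bases before the annotated start site, 5′ to 3′ on the gene's strand, build GRCm38.p6, from RefSeq. Where the table lists several starts for a gene, the most upstream was used. Capitals mark matches, on either strand, to 7 short motifs given after the sequences.

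Promoters of the genes higher on DSS:
Saa3 (chr7:46715677-46715926, minus strand): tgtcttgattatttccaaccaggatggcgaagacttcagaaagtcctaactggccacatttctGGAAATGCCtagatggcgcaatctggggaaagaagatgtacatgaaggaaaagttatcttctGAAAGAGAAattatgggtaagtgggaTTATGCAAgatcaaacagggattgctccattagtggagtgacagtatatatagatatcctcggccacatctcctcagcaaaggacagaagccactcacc
Lcn2 (chr2:32387740-32387989, minus strand): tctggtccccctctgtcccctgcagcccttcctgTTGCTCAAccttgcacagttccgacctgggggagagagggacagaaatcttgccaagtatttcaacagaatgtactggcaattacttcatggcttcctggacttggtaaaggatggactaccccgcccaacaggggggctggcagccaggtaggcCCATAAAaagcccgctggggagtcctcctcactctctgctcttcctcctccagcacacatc
Serpina3n (chr12:104406458-104406707, plus strand): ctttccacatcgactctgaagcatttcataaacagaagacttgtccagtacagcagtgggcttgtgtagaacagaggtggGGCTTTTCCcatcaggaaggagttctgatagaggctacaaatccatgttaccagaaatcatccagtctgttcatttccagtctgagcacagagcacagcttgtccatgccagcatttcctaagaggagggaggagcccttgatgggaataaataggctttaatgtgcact
Promoters of the genes lower on DSS:
Mptx1 (chr1:174330268-174330517, plus strand): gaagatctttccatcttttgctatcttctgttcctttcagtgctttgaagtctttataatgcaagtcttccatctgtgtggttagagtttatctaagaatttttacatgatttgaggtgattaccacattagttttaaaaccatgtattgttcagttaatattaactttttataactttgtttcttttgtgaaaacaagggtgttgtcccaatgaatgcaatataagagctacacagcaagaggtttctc
Fmo4 (chr1:162812550-162812799, minus strand): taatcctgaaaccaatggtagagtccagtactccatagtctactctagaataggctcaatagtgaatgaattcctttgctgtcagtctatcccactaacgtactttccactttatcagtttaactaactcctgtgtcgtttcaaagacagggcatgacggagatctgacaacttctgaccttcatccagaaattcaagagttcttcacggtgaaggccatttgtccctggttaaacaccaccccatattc
Cyp2f2 (chr7:27119705-27119954, plus strand): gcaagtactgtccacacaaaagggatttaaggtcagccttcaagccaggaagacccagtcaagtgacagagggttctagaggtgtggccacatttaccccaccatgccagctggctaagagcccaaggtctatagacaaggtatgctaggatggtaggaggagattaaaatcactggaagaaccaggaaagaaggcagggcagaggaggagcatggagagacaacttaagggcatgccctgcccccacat

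Saa3, beginning with the match nearest its start site, holds a C/EBP motif at -99, an interferon response core at -125 and a kappa B core at -187. Lcn2 holds a C/EBP motif at -216 and a CDX motif at -61. Serpina3n holds a kappa B core at -170. No motif was found in the windows of Mptx1, Fmo4 and Cyp2f2, which says only that these letters are not there. The motifs were searched on both strands as GGNNTTTCC (kappa B core), TTCNNNGAA (STAT), GAAANNGAA (interferon response core), TTGCNNAA (C/EBP), CTTTGAT (TCF), CAAAGNCCA (HNF4) and TTTATNG (CDX). Entries existed for 27 of the 37 genes of the higher side and for 15 of the 21 of the lower side. A kappa B core was found in 4 of the 27 windows and in 4.82% of all 27025 promoters of the table. C/EBP was found in 7 of 27, against 9.55% of all, and the interferon response core in 4 of 27, against 7.16%. STAT was found in 3 of 27, against 7.14%. On the lower side 1 of 15 held a kappa B core and 2 of 15 a C/EBP motif, and none held the other 5. The CDX letters were found in 8 of 27, against 10.2% of all. They overlap the TATA box in part, and 6 of the 8 genes had them between -40 and -5. TCF and HNF4 were found in none of the 27, against 3.26% and 1.65% of all. Letters alone show no binding, and these shares carry no test.

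The widest gap on the lower side belonged to Mptx1, a mucosal pentraxin made by colon epithelium. It read 0.42, 0.19 and 0.12 on water and -3.56, -6.17 and -4.89 on DSS, a difference of -5.12 ± 0.64 (SE, n = 3 per group, limma adjusted p = 0.328). Every treated array lay far below every control, DSS 2 farthest. Fmo4, a flavin monooxygenase, read 0.31, 0.34 and 0.23 on water and -1.78, -2.19 and -2.28 on DSS. Its treated arrays lay close together, and the difference was -2.38 ± 0.15 (SE, n = 3 per group, limma adjusted p = 0.123). Cyp2f2, a cytochrome P450, read 0.11, 0.02 and 0.50 on water and -1.75, -3.88 and -2.99 on DSS. Relative to the pan-epithelial median of each array the mean differences of Mptx1, Fmo4 and Cyp2f2 were -4.32, -1.58 and -2.29, still lower. On that scale Fmo4 on DSS 2 lay only slightly below the water arrays.

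Further genes on the lower side were read in the same way. Itih2, a heavy chain that links to hyaluronan, read 0.20, 0.04 and 0.71 on water and -1.65, -2.20 and -2.72 on DSS. Ctse, cathepsin E, read 0.31, 0.01 and 0.04 on water and -1.64, -2.43 and -4.24 on DSS, with DSS 3 lowest. Tmprss13, a membrane serine protease, read 0.13, -0.18 and 0.18 on water and -1.74, -2.26 and -2.16 on DSS and was even over the treated arrays. Ttr, transthyretin, a carrier of thyroid hormone and of retinol binding protein, read -0.31, 1.03 and 1.24 on water and -1.66, -2.39 and -2.06 on DSS, and Alb, albumin, read 0.46, -0.16 and 0.46 on water and -1.53, -1.54 and -2.04 on DSS. Ttr was also the most uneven of these genes on water. Slc16a12, a monocarboxylate transporter relative, read -0.04, 0.04 and 0.38 on water and -1.64, -1.60 and -2.91 on DSS.

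Stem cell and Wnt target genes were lower on the treated arrays for 12 of 26 and higher for 2, against 10.7% and 5.45% of all genes. Their median difference of -0.29 turned to 0.51 relative to the pan-epithelial median, where that of all genes was 0.76. Lgr5, the receptor for R-spondins that marks crypt base stem cells, read 0.45, -0.00423 and 0.50 on water and -1.40, -1.99 and -1.70 on DSS. It lay lower on all 3 treated arrays by a gap above 1, with a difference of -2.01 ± 0.21 (SE, n = 3 per group, limma adjusted p = 0.292). Ascl2, the transcription factor that maintains these cells, read 0.41, -0.18 and 0.14 on water and -0.76, -1.38 and -1.33 on DSS. Rnf43, a ligase that removes Wnt receptors, read -0.02, 0.10 and 0.04 on water and -1.0, -2.46 and -0.63 on DSS. Ephb3, which positions cells along the crypt, read 0.08, -0.01 and 0.08 on water and -0.59, -1.14 and -1.13 on DSS, and Axin2, a feedback inhibitor of Wnt signalling, read 0.10, -0.04 and 0.14 on water and -0.57, -1.08 and -1.01 on DSS. Relative to the pan-epithelial median, Lgr5 differed by -1.22, Rnf43 by -0.61, Ascl2 by -0.48, Ephb3 by -0.21 and Axin2 by -0.16. These means were not shared by all treated arrays. On that scale each of these genes lay below every water array on DSS 1 and DSS 3. On DSS 2, where the pan-epithelial median was -2.21, only Rnf43 did so. There Lgr5 lay among the water arrays, and Ascl2, Ephb3 and Axin2 lay above all of them. Znrf3, the paralogue of Rnf43, read 0.08, -0.04 and 0.11 on water and -0.99, -0.56 and -0.65 on DSS, and its difference changed sign on that scale to 0.02.

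Cell cycle and DNA replication genes had their lowest values on DSS 3, not on DSS 2. The medians of the 34 genes were 0.17, -0.49 and -1.18 on DSS 1, 2 and 3. On the lower side 6 genes were separated (17.6%, beside 10.7% of all genes), and none on the higher side. The median difference of -0.50 was -0.85 without DSS 1 and -0.22 without DSS 3. It turned to 0.29 relative to the pan-epithelial median, beside 0.76 over all genes. Ccnb2, a cyclin of mitosis, read -0.12, -0.05 and 0.45 on water and -0.70, -1.5 and -2.85 on DSS. Kif11, a spindle motor, read 0.03, -0.03 and 0.30 on water and -0.41, -1.60 and -2.58 on DSS, and Aurkb, a kinase of chromosome segregation, read 0.05, 0.25 and 0.10 on water and -0.33, -1.38 and -2.15 on DSS. Cdk1, the kinase of mitotic entry, read -0.04, 0.15 and 0.19 on water and -0.13, -0.74 and -2.0 on DSS, and DSS 1 lay only slightly below the controls.

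Transport genes of the colon surface were lower on the treated arrays for 17 of 35 and higher for none, against 10.7% and 5.45% of all genes. The median difference was -1.05, -0.26 relative to the pan-epithelial median and -0.39 without DSS 2. Scnn1a, part of the sodium channel ENaC, read 0.12, 0.16 and 0.27 on water and -0.97, -2.93 and -1.41 on DSS. Kcne3, a potassium channel subunit for chloride secretion, read 0.13, -0.07 and 0.07 on water and -0.77, -3.64 and -1.55 on DSS, and Kcnn4, a calcium-activated potassium channel, read -0.07, 0.02 and 0.11 on water and -0.73, -2.48 and -0.84 on DSS. Slc26a3, the chloride and bicarbonate exchanger of absorption, read 0.21, 0.14 and 0.09 on water and -0.41, -2.77 and -0.95 on DSS, and Slc26a2, a sulfate transporter needed for mucin sulfation, read 0.02, -0.02 and 0.18 on water and -0.69, -2.78 and -0.52 on DSS. All 5 had their lowest value on DSS 2, and all 5 differed downward on the pan-epithelial scale too, Scnn1a by -1.16 and Slc26a2 by -0.60. On that scale the medians of the whole list were 0.09, -0.03 and 0.09 on water and -0.18, 0.03 and -0.09 on DSS. On DSS 2 the list thus lay among the water arrays. Dpp4, a brush border peptidase, read 0.15, -0.18 and 0.28 on water and -1.05, -2.78 and -0.72 on DSS. Best2, a chloride channel of goblet cells, read 0.68, 0.03 and 0.58 on water and -0.19, -2.49 and -2.30 on DSS, with DSS 1 nearest the controls.

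Several further lists had their lowest medians on DSS 2, as the pan-epithelial genes did. Tight junction genes had medians of -0.11, -1.94 and 0.05 on DSS 1, 2 and 3 and a median difference of -0.45 (-0.05 without DSS 2, -0.90 without DSS 3). Relative to the pan-epithelial median it turned to 0.35, beside 0.76 over all genes. Ocln, occludin, read 0.11, 0.05 and 0.09 on water and -0.50, -2.87 and -0.20 on DSS, and 4 of 29 tight junction genes were separated on the lower side, a share near the 10.7% of all genes. Goblet cell genes had medians of -0.05, -1.56 and 0.25, absorptive colonocyte and brush border genes -0.07, -1.97 and 0.32, and respiratory chain genes -0.12, -0.81 and -0.03. Their median differences were -0.48, -0.53 and -0.38, and all 3 turned positive on the pan-epithelial scale, to 0.32, 0.27 and 0.42. These values still lay below the 0.76 of all genes on that scale. Without DSS 2 the 3 medians were 0.05, 0.10 and -0.14, and without DSS 3 the goblet and absorptive medians were -0.72 and -0.93. Of the 25 goblet genes 5 were separated on the lower side (20%), and of the 27 absorptive genes 3 (11.1%). For the respiratory chain it was 13 of 29 (44.8%), beside 10.7% of all genes. On the higher side 1 goblet gene was separated and none of the other 2 lists. Cholesterol and fatty acid synthesis genes were separated on the lower side for 8 of 24, with a median difference of -0.36 that was -0.08 without DSS 2 and turned to 0.43 on the pan-epithelial scale. Acly, which makes cytosolic acetyl coenzyme A, read -0.03, 0.05 and -0.10 on water and -0.33, -1.44 and -1.28 on DSS.

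**Figure D2:**
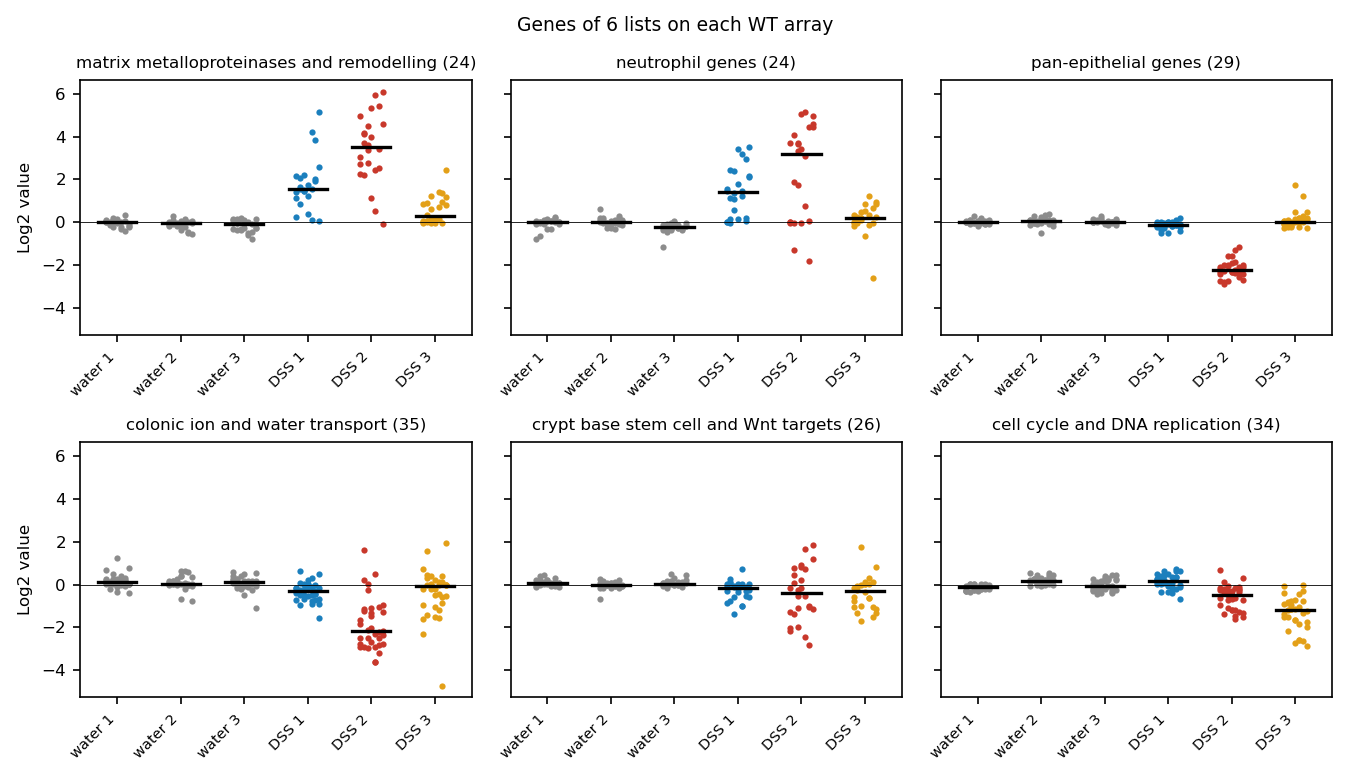
Every measured gene of 6 lists is a dot at its log2 value on each of the 6 WT arrays, with a black line at the list's median, the number of genes in parentheses and the same y axis in all panels. Matrix and neutrophil genes are highest on DSS 2, pan-epithelial and transport genes are lowest there, and cell cycle genes are lowest on DSS 3.

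Serotonin handling, retinoids and the clock held further separated genes. Slc6a4, the transporter that clears serotonin into epithelial cells, read 0.22, 0.01 and 0.11 on water and -1.33, -2.96 and -2.01 on DSS. Htr4, a serotonin receptor, read 0.17, -0.13 and 0.23 on water and -0.90, -2.63 and -1.66 on DSS, and Maob, a monoamine oxidase, read 0.22, -0.12 and 0.33 on water and -0.79, -1.26 and -0.72 on DSS. Of the 11 genes of this list 4 were on the lower side and none on the higher, against 10.7% and 5.45% of all genes. The median difference was -0.82, and -0.23 without DSS 2. Relative to the pan-epithelial median it was -0.02, beside 0.76 over all genes. The medians were -0.38, -1.26 and -0.08 on DSS 1, 2 and 3. Dhrs9, a retinol dehydrogenase, was on the higher side and read -1.07, -0.02 and -0.26 on water and 2.05, 1.11 and 1.74 on DSS. Rbp2, a cellular retinol binding protein of absorptive cells, was on the lower side and read 0.98, 0.98 and 1.35 on water and 0.31, -1.31 and -1.37 on DSS. Of 18 clock genes 6 were lower and 2 higher on every treated array, against 10.7% and 5.45% of all genes. Dbp and Ciart, outputs of the clock, read 0.38, 0.09 and 0.56 on water and -1.73, -2.06 and -0.53 on DSS and 0.60, 0.31 and 0.70 on water and -1.65, -2.45 and -0.45 on DSS, and Nfil3, a repressor of the same promoters as Dbp, read -0.07, -0.07 and -0.27 on water and 1.23, 2.60 and 1.11 on DSS. Times of sampling are not in the labels, and their part in the clock values was not tested.

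Posterior Hox genes were separated on the lower side for 8 of 13 and on the higher side for 1, and their medians were -0.23, -0.41 and -1.0 on DSS 1, 2 and 3. Hox genes are set by position along the body axis. The median difference of -0.63 was -0.40 without DSS 3 and turned to 0.17 relative to the pan-epithelial median, beside 0.76 over all genes. Hoxb13 read 0.12, 0.09 and 0.12 on water and -0.50, -2.65 and -5.36 on DSS. Hoxd13 read -0.01, -0.04 and 0.15 on water and -0.34, -0.70 and -4.26 on DSS. Hoxa13 read -0.11, -0.02 and 0.44 on water and -0.35, -0.82 and -2.96 on DSS. For these 3 genes DSS 3 lay far below the other treated arrays. The 20 anterior and middle Hox genes went both ways, with a median difference of -0.03. On each side 3 were separated (15%), beside 5.45% of all genes on the higher side and 10.7% on the lower side. Hoxb5 was on the higher side and read 0.02, -0.02 and -0.02 on water and 0.28, 0.84 and 2.37 on DSS, and Hoxa7 was on the lower side and read -0.14, -0.02 and 0.13 on water and -0.48, -1.0 and -1.26 on DSS. The labels do not give the position in the colon from which each sample came, and its part in these values was not tested.

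**Figure D3:**
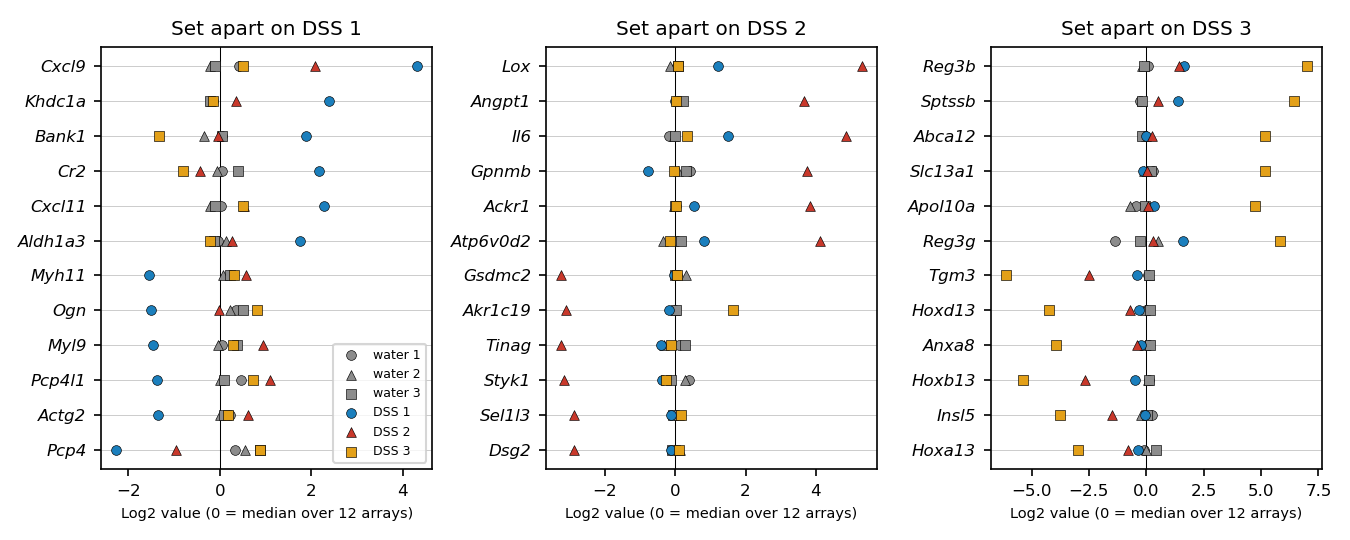
For each of the 3 WT DSS arrays, the 6 genes farthest above and the 6 farthest below the nearest of the other 5 WT arrays are plotted by log2 value (x axis), with a symbol for each array. In each panel the named array stands alone at the ends, as with Reg3b at 6.99 and Tgm3 at -6.12 on DSS 3.

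Genes that set a single treated array apart by at least 1 log2 unit numbered 25 above and 18 below on DSS 1, 1204 and 768 on DSS 2, and 157 and 68 on DSS 3. On DSS 3 the antibacterial lectin Reg3b read 6.99 against 1.64 and 1.42 on DSS 1 and 2. Reg3g, its relative, read -1.35, 0.50 and -0.29 on water and 1.6, 0.29 and 5.83 on DSS. Slc13a1, a sulfate transporter, and Abca12, a lipid transporter, read -0.15, 0.02 and 5.18 and -0.02, 0.24 and 5.16 on DSS 1, 2 and 3. Tgm3, a transglutaminase, read 0.07, 0.10 and 0.13 on water and -0.38, -2.50 and -6.12 on DSS, and Insl5, a hormone of distal colon enteroendocrine cells, read 0.25, -0.25 and 0.04 on water and -0.06, -1.51 and -3.75 on DSS. Of the 6 genes farthest below on DSS 3, 3 were the posterior Hox genes given above.

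On DSS 2 the genes set apart above were Lox, which crosslinks collagen, with 0.04, -0.14 and 0.09 on water and 1.22, 5.32 and 0.08 on DSS, and Il6, interleukin 6, with -0.18, -0.04 and -0.01 on water and 1.51, 4.85 and 0.33 on DSS. Ackr1, a chemokine receptor of venules, read 0.03, -0.04 and -0.01 on water and 0.53, 3.85 and 0.01 on DSS. Those set apart below included Dsg2, a desmosomal cadherin, with 0.09, 0.13 and -0.10 on water and -0.13, -2.87 and 0.10 on DSS, and Gsdmc2, a gasdermin, with 0.05, 0.30 and 0.01 on water and -0.05, -3.24 and 0.05 on DSS. On DSS 1 the chemokines Cxcl9 and Cxcl11, which interferon gamma induces, were set apart above, with 0.41, -0.22 and -0.11 on water and 4.32, 2.08 and 0.51 on DSS for Cxcl9. Bank1, an adaptor of B cells, read 0.05, -0.35 and 0.06 on water and 1.88, -0.05 and -1.33 on DSS, and Cr2, a complement receptor of B cells, read 0.06, -0.06 and 0.40 on water and 2.16, -0.43 and -0.79 on DSS. Smooth muscle genes were among those set apart below on DSS 1, with 0.23, 0.06 and 0.22 on water and -1.54, 0.58 and 0.31 on DSS for Myh11, the smooth muscle myosin heavy chain, and 0.22, -0.00203 and 0.10 on water and -1.34, 0.61 and 0.18 on DSS for Actg2, the enteric smooth muscle actin.

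**Figure D4:**
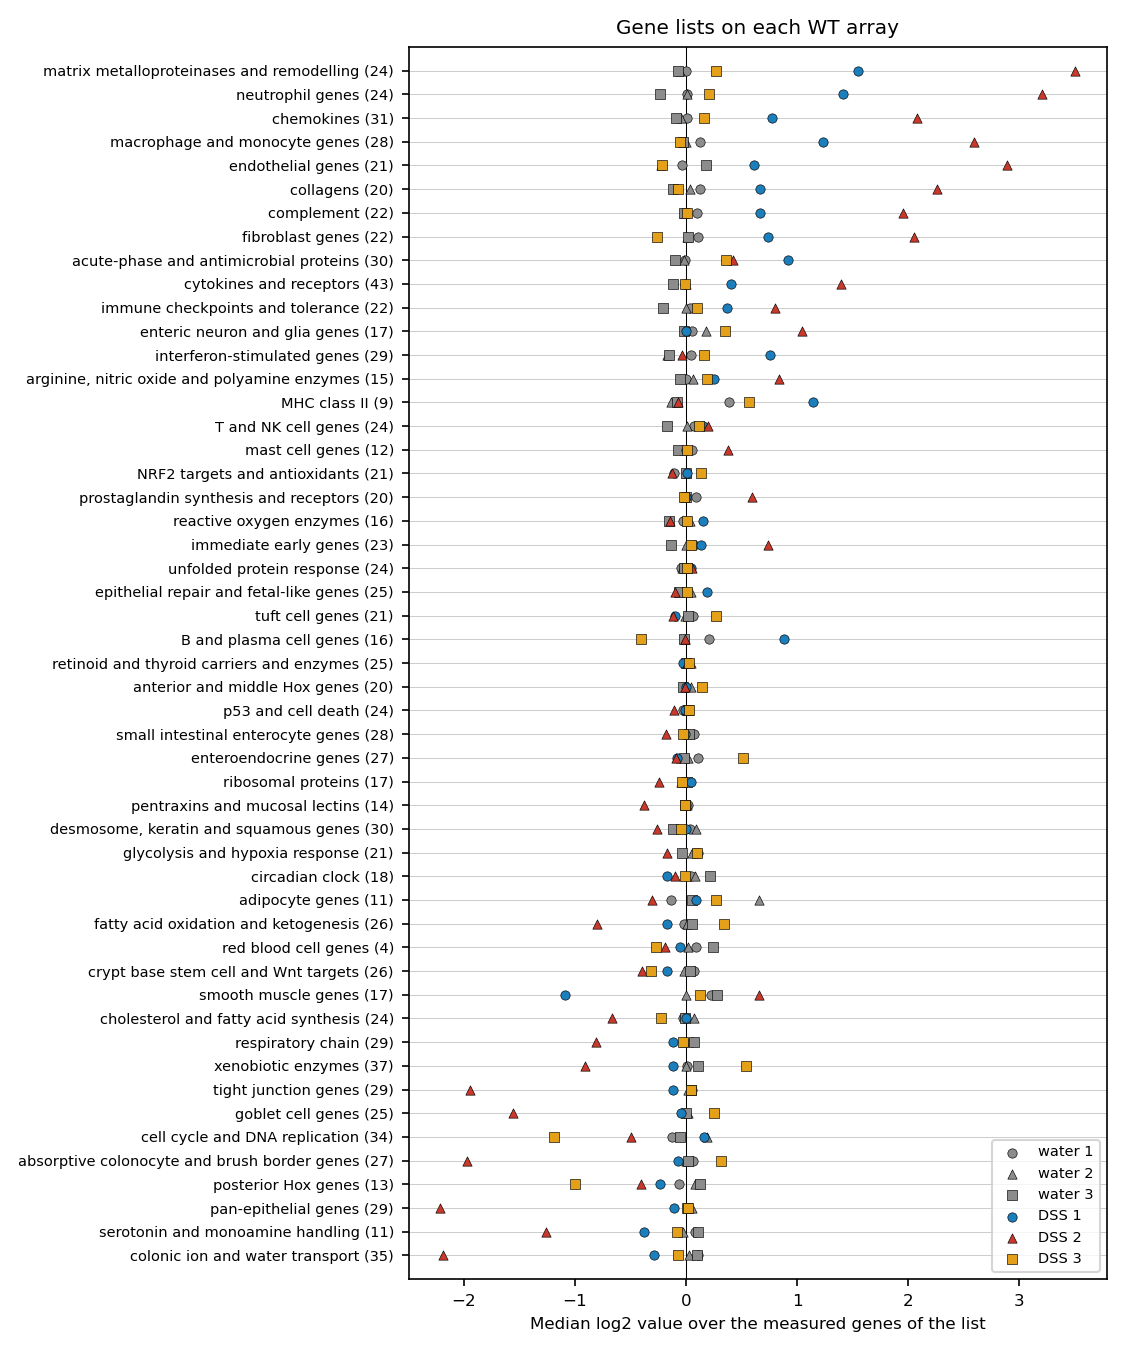
The median log2 value of each of 51 gene lists is shown for each of the 6 WT arrays, with the number of measured genes in parentheses and lists sorted by the median difference between groups. DSS 2 is the highest array for matrix, neutrophil, endothelial and collagen genes and the lowest for pan-epithelial and transport genes, and DSS 3 is the lowest for cell cycle, posterior Hox and B cell genes.

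Stress lists had small median differences. Glycolysis and hypoxia genes, p53 and cell death genes and the unfolded protein response had median differences of -0.13, -0.04 and 0.11, beside -0.04 over all genes. All 3 were positive on the pan-epithelial scale, as was that of all genes at 0.76. Without DSS 2 the glycolysis and hypoxia median was 0.04. Separated genes of the unfolded protein response were 6 of 24 on the higher side and 3 on the lower side, beside 5.45% and 10.7% of all genes. Hspa5, the chaperone of the endoplasmic reticulum, read -0.18, 0.01 and -0.19 on water and 0.41, 0.40 and 0.10 on DSS. Among 23 immediate early genes 9 were separated on the higher side and 2 on the lower side. Ier3 read -0.07, -0.04 and -0.05 on water and 1.46, 3.07 and 0.57 on DSS, and Klf4, a factor of surface colonocytes, was lower and read 0.07, 0.13 and 0.03 on water and -0.37, -1.75 and -0.25 on DSS.

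Directions depended on what an array was centred on. When each array was centred on its pan-epithelial median, the median difference of all genes shifted to 0.76, 24 of the 51 list medians changed sign and so did 65 of the 295 named genes. This centring adds the same amount to the difference of every gene. Most of that amount came from DSS 2, with a pan-epithelial median of -2.21, against -0.11 and 0.02 on DSS 1 and 3. The counts of separated genes became 3249 on the higher side and 98 on the lower side. The 3 genes that kept a gap of at least 1 on the lower side were Mptx1, Cyp2f2 and Cox7a1, the muscle form of a cytochrome oxidase subunit, with -1.38 for the last. On the higher side 51 genes had a gap of at least 1. Leaving out DSS 1, 2 or 3 changed the sign of 6, 11 and 2 of the 51 list medians. In the limma test of a difference in DSS response between the 2 genotypes over 12 arrays, 0 of all 19935 genes passed, and so no named gene did. That fit pools the spread of all 12 arrays, and a gene that does not pass is not shown to respond alike in both genotypes.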

How the data were processed

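The authors deposited log2 values for 28815 probe sets on 12 arrays, summarised with RMA in Affymetrix Expression Console, per the submitters' processing notes. The log2 base is taken from RMA and is not stated. The sources used here give no version of either. Each probe set's median over the 12 arrays was 0 to within 5e-07, a centring found from the values. No filter on dim probe sets could therefore be set.

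Of the probe sets, 21780 carried 1 symbol, 1605 several and 5430 none. Probe sets of a gene were averaged, giving 19935 genes, 998 with several probe sets. The 7035 probe sets without a single symbol were left out.

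DSS was compared with water on the 6 WT arrays with the lmFit and eBayes functions of limma 3.58.1 under R 4.3.3, with 4 residual degrees of freedom, because the WT DSS arrays spread more than the others. P-values were two-sided, Benjamini-Hochberg adjusted over all genes, with a threshold of 0.05 and no fold threshold. Each SE is the moderated one of this fit and not that of the gene's own 6 values alone. A permutation of 3 against 3 arrays cannot go below 0.1. The fit was tested on simulated data. The number of arrays limits the precision.

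The arrays compared, the 51 gene lists (1267 entries, 1160 measured) and the alternatives were chosen with earlier results of these data known, so lists carry no test. Named genes were the 15 with the widest gap of at least 1 in each direction, the 6 farthest above and below on each DSS array, up to 6 separated members of each list (otherwise the 4 with the smallest p) and the first 3 of each marker list. Predicted symbols were left out of the first 2 kinds. Promoters came from the RefSeq table of GRCm38.p6, which held 15612 of the measured genes. Tables and figures used Python 3.11.15, pandas 2.3.3, numpy 2.4.6 and matplotlib 3.10.9.

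Alternatives were other sets of arrays, weights, a replicate block, probe sets, centring, thresholds, gaps and the omission of each array.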

Additional observations from a re-analysis of the deposited data

Results flagged for a closer look

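Probe sets without a single gene name were outside the comparison. Of these 7035, 3 lay at least 1 log2 unit higher on every DSS array than on every water array, and 3 lay at least 1 lower. The higher ones differed by 3.96, 2.10 and 2.05. The first has no symbol, the second is shared by Gm4070 and Gvin1, and the third by Olfr56 and Ifi47, an interferon-inducible GTPase. The lower ones differed by -2.27, -2.28 and -2.07. The first 2 are shared by Gal3st2, Gal3st2b and Gal3st2c, sulfotransferases that act on galactose, and the third has no symbol.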

How the results depend on the processing

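The count of passing genes in the 6-array limma fit was 0. It was 34 with all 12 arrays in the fit, 45 with weights per array, 1 with trend and robust eBayes and 78 with each array centred on its pan-epithelial median. It was 0 with a weight per group, with every probe set on its own, with single probe set genes, with each array centred on its median, at an adjusted p under 0.1 and with a fold of at least 1.5. Leaving out each array in turn gave 0 to 66. With the replicate number as a block, 0 genes passed and 1400 had an unadjusted p under 0.05; deviations of arrays with the same number correlated at -0.04, -0.06 and 0.05, so the numbers were not taken to pair the samples.

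Genes higher on every DSS array numbered 1086, 3249 on the pan-epithelial scale and 1429 to 2303 without 1 array. With a gap of at least 1 there were 37, and 41 to 263 without 1 array, 106 at a gap of 0.5 and 5 at a gap of 2. Genes lower on every DSS array numbered 2129, 98 on the pan-epithelial scale and 2697 to 4913 without 1 array. With a gap of at least 1 there were 21, and 34 for every probe set, 3 on the pan-epithelial scale, 22 to 162 without 1 array, 133 at a gap of 0.5 and 2 at a gap of 2. Fewer arrays or a smaller gap make separation easier by construction, and a larger gap makes it harder. Centring on the pan-epithelial median shifts all genes of an array by the same amount, most on DSS 2. The cause of the other shifts was not tested.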

Other observations

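Genes of antigen presentation, mast cells and gut peptides had their own patterns over the arrays. The 9 measured MHC class II genes had medians of 1.14, -0.07 and 0.57 on DSS 1, 2 and 3 and 0.39, -0.13 and -0.08 on water, and 1 of them, H2-DMa, which loads peptides onto class II molecules, was separated on the higher side with 0.03, -0.36 and -0.10 on water and 0.86, 0.28 and 1.08 on DSS. Mcpt1, a protease of mucosal mast cells, read 0.09, -0.18 and -0.09 on water and 0.14, 2.22 and 1.36 on DSS, while Ms4a2, a chain of the IgE receptor on the same cells, read 0.16, -0.03 and -0.01 on water and -0.14, -0.04 and -0.04 on DSS. Tac1, the precursor of substance P, was higher on every DSS array and read -0.51, -0.17 and -0.45 on water and 1.41, 1.80 and 0.93 on DSS. Cck, the hormone cholecystokinin, read -0.03, 0.08 and -0.40 on water and 0.54, 0.24 and 0.54 on DSS, a smaller separation in the same direction. Of the 27 measured enteroendocrine genes only these 2 were separated on the higher side, and 2, Ddc and Pax6, on the lower side. That is 7.41% each, beside 5.45% and 10.7% of all genes, and the list's median difference was -0.05. Ces1d, a carboxylesterase, was higher on every DSS array and read -0.67, 0.01 and -0.24 on water and 0.38, 0.84 and 2.36 on DSS, and Cyp2c68, a cytochrome P450, was lower and read 0.42, -0.26 and 0.70 on water and -1.16, -3.46 and -2.58 on DSS. The ribosomal protein genes had medians of 0.05, -0.24 and -0.03 on the DSS arrays.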
